A study of Homo sapiens with 60 samples.

Results

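The distal end of the long arm of chromosome 19 carries several clusters of zinc finger genes. A stretch of 7.13 Mb, chr19:52000000-59128983 on GRCh37, was examined in 24 CUT&RUN peak lists. Its members were all deposited peaks whose midpoint fell in that interval, whatever their reproducibility, so membership rested on position alone. The interval itself and the comparisons were chosen with earlier results of these data known. They numbered 3988 of 507516 deposited peaks: 1478 for H3K27Ac, 1113 for RAD21, 1010 for PDS5A and 387 for the IgG control. The interval makes up 0.235% of the assembled length of chromosomes 1 to 22 and X. In the 0.25 Mb just outside its start the 6 lists of each antibody held 52 H3K27Ac, 26 RAD21, 28 PDS5A and 9 IgG peaks, and in the 0.25 Mb just inside they held 23, 20, 26 and 6.

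CUT&RUN releases and sequences the chromatin fragments around a bound antibody. It was run in PC9, an established lung adenocarcinoma line that depends on mutant EGFR. The cells were wild type (WT), METTL7A knockout (KO), or Rescue, which are KO cells overexpressing METTL7A with MYC and FLAG tags; METTL7A is a methyltransferase-like protein. Each genotype was either untreated or kept under osimertinib, an EGFR inhibitor, in doses escalated from 100 nM during 6 to 8 weeks. The 6 conditions thus share a parental line. WT cells lack the transgene, and the Rescue cells carry both the knockout and the transgene. Whether the KO cells are 1 clone was not stated in the sources used here. Each of the 24 lists joins 2 replicate samples of 1 antibody and condition, and nothing in the labels says that replicates were separate cultures.

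Zinc finger genes of this kind mostly encode KRAB repressors, whose KRAB domain recruits TRIM28 and, through it, the H3K9 methyltransferase SETDB1. Many of them silence transposable elements. Their clusters arose by repeated tandem duplication, and gene bodies there carry H3K9me3 while promoters can stay active. Between and among the clusters on distal 19q lie the leukocyte receptor genes (the LILR, LAIR and KIR families of immune receptors) and a primate microRNA cluster. H3K27Ac marks active regulatory elements. RAD21 closes the cohesin ring that extrudes chromatin loops, and PDS5A binds cohesin and takes part in its release from DNA. IgG, which recognizes no chromatin protein, records where the nuclease cuts without a target. In RefSeq's gene order, 112 of the 237 protein-coding genes from ZNF175 to the end of the arm have zinc finger symbols, 22 are leukocyte receptor genes, and 67 further genes are microRNAs. RefSeq was used for these names only, because its coordinates are of another build; no gene was assigned to a peak, and no sequence is shown for the same reason.

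The lists differed greatly in length, from 22625 to 45234 peaks for H3K27Ac, 15525 to 38829 for RAD21, 9232 to 34781 for PDS5A and 167 to 7612 for IgG. How deeply each sample was sequenced is unknown. Across the peaks of the interval alone, replicate −log10 p values of a list correlated at a Spearman rho of 0.594 to 0.812 for H3K27Ac, 0.570 to 0.778 for RAD21, 0.358 to 0.739 for PDS5A, and −0.132 to 0.483 for IgG. The highest IgG value, in untreated KO cells, rests on 11 peaks. The untreated KO lists of PDS5A and IgG were the shortest of their antibodies, and all lists of osimertinib-treated WT cells but that of H3K27Ac were the longest. Comparisons below therefore use the share of a list, that is, the peaks of the 19q interval as a percentage of all peaks of that list.

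The IgG control had the largest share of its peaks in the zinc finger interval in every condition. H3K27Ac peaks there made up 0.866% of the untreated WT list, 0.517% of the treated WT list, 1.24% and 0.640% of the untreated and treated KO lists, and 0.582% and 0.617% of the Rescue lists. In the same order the RAD21 shares were 0.992%, 0.595%, 0.836%, 0.882%, 0.758% and 0.859%. The PDS5A shares were 0.834%, 0.641%, 0.932%, 0.866%, 0.637% and 0.766%. All 18 of these lie above the 0.235% that the length of the interval would give, by up to 5.28-fold. The IgG shares were 4.54%, 1.56%, 6.59%, 4.14%, 4.95% and 5.02%, which is 6.65-fold to 28.0-fold over length. No IgG share overlapped a share of the other antibodies.

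**Figure D1:**
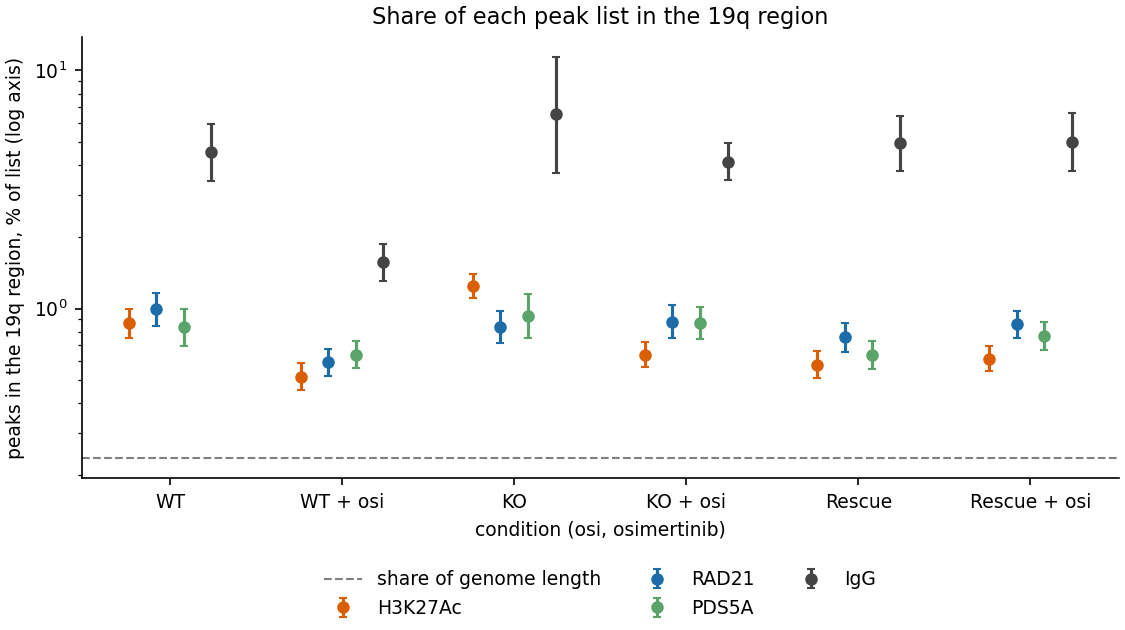
Share of each peak list in the 19q interval (y axis, percent of all peaks of the list, log axis) in the 6 conditions, by antibody, with Wilson 95% intervals; the dashed line is the share of the genome's length, 0.235%. The IgG points, from 1.56% to 6.59%, lie above all points of the other antibodies, which reach 1.24%.

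The number of peaks behind the IgG shares was small: 48, 119, 11, 112, 52 and 45 in the interval, in the same order. The Wilson 95% interval, which covers counting error only, ran from 3.72% to 11.4% in untreated KO cells, where 11 of 167 IgG peaks fell in the interval, and from 1.31% to 1.87% in treated WT cells. Set against IgG of the same cells, the difference in share was −3.65 ± 1.57 percentage points for RAD21 (SD, n = 6 conditions), −3.69 ± 1.57 for PDS5A and −3.72 ± 1.46 for H3K27Ac. Each antibody was below IgG in 6 of 6 conditions, with p = 0.0313 and adjusted p = 0.0313 over 3 antibodies in an exact sign-flip permutation test over conditions (two-sided), the smallest value that 6 conditions allow. Such p-values measure the spread between conditions only. With peaks limited to a global irreproducible discovery rate (IDR, a measure of how well replicates rank a peak alike) of 0.05 or less, the IgG lists had 0 to 15 peaks in the interval. Whole IgG lists then held 7 to 313 peaks. The differences were −6.86 for RAD21, −6.81 for PDS5A and −6.90 for H3K27Ac, with adjusted p = 0.0625 in the same exact test. In untreated KO cells the order was reversed. There 0 of 7 IgG peaks lay in the interval, against 1.46% for H3K27Ac, 1.27% for RAD21 and 1.54% for PDS5A.

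Within the interval the IgG share was highest in 4 windows of 1 Mb, which also had the highest shares of each antibody in the interval. By mean share over the 6 lists, the window from 54 to 55 Mb ranked 1 of the 1834 windows genome-wide that held an IgG peak, at 1.28%. The window from 58 to 59 Mb ranked 2 at 0.846%, that from 56 to 57 Mb ranked 5 at 0.718%, and that from 55 to 56 Mb ranked 6 at 0.669%. The same windows stood lower in the antibody lists: 54 to 55 Mb ranked 12 of 2685 for RAD21, 20 of 2673 for PDS5A and 52 of 2558 for H3K27Ac. Between lists the IgG share of that window ranged from 0.315% to 2.99%, the highest value resting on 5 peaks of the shortest list. The windows starting at 52, 57 and 53 Mb ranked 37, 49 and 70 for IgG.

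**Figure D2:**
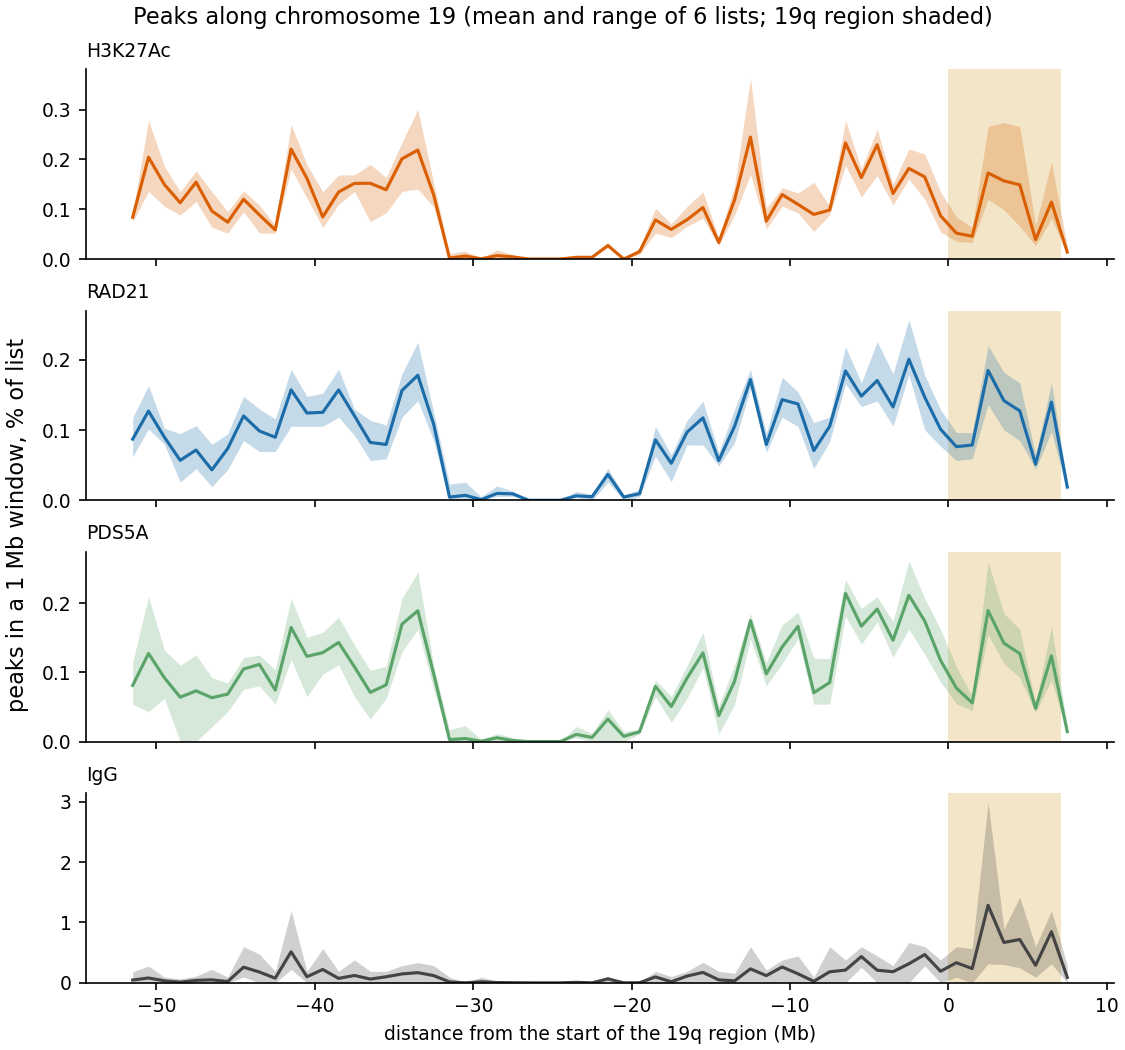
Peaks per 1 Mb window as a percentage of the list (y axis, separate scale for each antibody) along chromosome 19, against distance from the start of the 19q interval in Mb (x axis); the line is the mean and the band the range of 6 lists, and the interval is shaded. IgG reaches its highest mean, 1.28%, inside the shaded interval, in the window where H3K27Ac has a mean of 0.173%, RAD21 0.185% and PDS5A 0.190%.

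Against the rest of chromosome 19, a gene-dense chromosome, H3K27Ac density showed no common direction in the zinc finger interval over all deposited peaks, but was higher there among peaks that passed the IDR threshold. H3K27Ac peaks per Mb in the interval and in the rest of the chromosome were 27.5 and 22.8 in untreated WT, 32.0 and 35.4 in treated WT, 41.2 and 27.2 in untreated KO, 35.2 and 41.1 in treated KO, 32.3 and 37.4 in untreated Rescue, and 39.1 and 48.3 in treated Rescue cells. The untreated WT and KO lists were higher in the interval and the other 4 were lower, with a mean log2 ratio of 0.00 ± 0.36 (SD, n = 6, exact sign-flip permutation test, adjusted p = 1). Among peaks with a global IDR up to 0.05, the mean log2 ratio was 0.78, higher in 6 of 6 lists (exact adjusted p = 0.0313 over 3 antibodies). RAD21 was denser in the interval in 6 of 6 lists, at 21.6 to 32.4 against 14.7 to 29.8 peaks per Mb, and its mean log2 ratio was 0.38 ± 0.17 (exact adjusted p = 0.0417 over 4 antibodies). PDS5A was denser in 6 of 6 lists as well, at 12.1 to 31.3 against 6.69 to 30.8 per Mb, with a mean log2 ratio of 0.28 ± 0.32 (exact adjusted p = 0.0417). IgG had 1.54 to 16.7 against 0.135 to 10.3 peaks per Mb and a mean log2 ratio of 2.34 ± 0.92, higher in 6 of 6 lists (exact adjusted p = 0.0417).

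The cohesin excess over the rest of the chromosome depended on which peaks and which sequence were compared. Among peaks that passed the IDR threshold of 0.05 it was larger, with mean log2 ratios of 1.301 for RAD21 and 0.97 for PDS5A, higher in 6 of 6 lists each (exact adjusted p = 0.0313), and at 0.01 or less it was 1.58 and 1.13 with the same p. Without the peak-poor stretch from 20 to 33 Mb around the centromere, an alternative added after seeing the data, the mean log2 ratio was −0.0026 for RAD21 and −0.11 for PDS5A, with exact adjusted p = 1 and 0.667, and 1.95 for IgG (adjusted p = 0.125). Without antibody peaks that overlapped any IgG peak, RAD21 and PDS5A were sparser in the interval than elsewhere on the chromosome, at −0.31 ± 0.14 and −0.48 ± 0.18 (SD, n = 6, exact adjusted p = 0.0417 for both). That filter took out 56.7% to 72.1% of RAD21 and 54.7% to 71.7% of PDS5A peaks in the interval. Elsewhere in the genome it took out 20.2% to 41.0% and 22.2% to 38.9%. The length in Mb was left unchanged, so the filter itself lowers the ratio, and no conclusion about cohesin is drawn from it. The zinc finger clusters of the short arm looked different. From 20 to 24 Mb, an interval chosen after seeing the data, the lists held 0 to 5.25 H3K27Ac, 0.25 to 7.25 RAD21 and 0 to 4.75 PDS5A peaks per Mb, below every 19q value of the same antibody. IgG was low there too, at 0 to 0.75 peaks per Mb and a mean share of 0.038%. Gene-dense distal 17q, from 72 to 81 Mb and likewise chosen later, held 33.1 to 68.8 H3K27Ac, 18.8 to 44.4 RAD21 and 8.22 to 45.7 PDS5A peaks per Mb, but its IgG share, 0.781% to 2.99%, had a mean of 1.40% against 4.47% on 19q.

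Along the interval, peaks gathered in the same stretches for all antibodies. From 54 to 56 Mb lay 656 of 1478 H3K27Ac, 446 of 1113 RAD21, 430 of 1010 PDS5A and 153 of 387 IgG peaks. By list this was 43.5% to 45.4% of the H3K27Ac peaks, 37.7% to 43.4% of RAD21, 40.8% to 44.2% of PDS5A and 33.3% to 54.5% of IgG. H3K27Ac density there was 44 to 64 peaks per Mb, above the 21.1 to 32.4 of the other windows in every list. With those 2 Mb left out the mean shares were 0.416% for H3K27Ac, 0.495% for RAD21, 0.449% for PDS5A and 2.57% for IgG, so that IgG stayed highest. The RAD21 and PDS5A log2 density ratios to the rest of the chromosome were then 0.12 and −0.05, with exact adjusted p = 0.292 and 0.719, and that of IgG was 2.01 (adjusted p = 0.125).

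Some stretches were almost bare in all 24 lists. From 55 to 55.25 Mb there were 0 H3K27Ac, 2 RAD21, 7 PDS5A and 0 IgG peaks over all lists. From 56.25 to 56.5 Mb the counts were 0, 4, 3 and 0, and from 57.25 to 57.5 Mb they were 3, 0, 0 and 0. Dense stretches lie beside them, and 56 to 56.25 Mb held 196 H3K27Ac, 105 RAD21, 98 PDS5A and 46 IgG peaks. Whether repeats or unmappable sequence account for the gaps was not tested.

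Peaks of the zinc finger interval passed the replicate threshold more often than other peaks. A global IDR of 0.05 or less was reached by 594 of 1478 H3K27Ac peaks, or 40.2% against 26.6% of all H3K27Ac peaks. It was reached by 520 of 1113 RAD21 peaks (46.7% against 35.5%), 429 of 1010 PDS5A peaks (42.5% against 32.6%) and 23 of 387 IgG peaks (5.94% against 3.02%). Over conditions the share that passed exceeded that of peaks elsewhere by 12.6 ± 4.37 points for RAD21, 11.1 ± 4.30 for PDS5A and 14.5 ± 5.96 for H3K27Ac (SD, n = 6, higher in 6 of 6 lists each, exact sign-flip permutation test, adjusted p = 0.0417 over 4 antibodies). For IgG the difference was 1.77 ± 4.22 points (5 of 6 lists, exact adjusted p = 0.406). Once peaks on an IgG peak were left out, the differences were 6.02 points for RAD21, 6.05 for PDS5A and 0.847 for H3K27Ac, with exact adjusted p = 0.25, 0.125 and 0.656.

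The count of passing peaks varied with the list. For H3K27Ac it was 68 in untreated and 91 in treated WT, 80 and 107 in KO, and 126 and 122 in Rescue cells. For RAD21 it was 57 and 127, 68 and 57, and 104 and 107, in the same order, and for PDS5A it was 29 and 97, 14 and 63, and 120 and 106. Rescue cells thus had the most passing H3K27Ac peaks in both treatments, and untreated KO cells had the fewest for PDS5A. Whole lists had the same order: 36.6% and 29.3% of Rescue H3K27Ac peaks passed against 21.7% to 23.2% in the other lists, and 9.87% passed in untreated KO cells for PDS5A, the lowest of its 6 lists. Peak strength, taken as the percentile within a list of the lower of both replicates' −log10 p, had a median 12.9 ± 9.81 points higher than elsewhere for H3K27Ac, 10.7 ± 5.83 for RAD21, 11.1 ± 10.1 for PDS5A and 9.55 ± 7.57 for IgG (SD, n = 6). It was higher in 6 of 6 RAD21 lists and 5 of 6 lists of the others, and none passed the exact test (adjusted p = 0.0625 for all 4).

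Antibody peaks of the 19q interval lay on IgG peaks of the same cells far more often than peaks elsewhere did. For RAD21 the share on an IgG peak was 24.7% in untreated WT, 44.2% in treated WT, 6.29% in untreated KO, 50.6% in treated KO, 21.4% in untreated Rescue and 18.6% in treated Rescue cells. Elsewhere in the genome the RAD21 values were 5.40%, 17.3%, 0.647%, 12.7%, 3.34% and 3.06%. H3K27Ac ranged from 3.40% to 42.1% (median 17.4%) against 0.582% to 14.9%, and PDS5A from 9.30% to 52.2% (median 22.9%) against 0.853% to 19.1%. The mean difference was 20.5 ± 10.9 points for RAD21, 21.2 ± 10.7 for PDS5A and 16.9 ± 10.1 for H3K27Ac (SD, n = 6), higher in 6 of 6 conditions each (exact sign-flip permutation test, adjusted p = 0.0417 over 8 pairs). The lowest values came from untreated KO cells, whose IgG list holds 167 peaks. IgG peaks were also denser in the interval, at 1.54 to 16.7 per Mb against 0.0515 to 2.48 elsewhere in the genome. Overlap was not matched for this density, so it is not separate from the higher IgG share. With all lists, IgG included, limited to a global IDR of 0.05 or less, RAD21 differed by 1.81 points, PDS5A by 3.28 and H3K27Ac by 2.03, none of them called (exact adjusted p = 0.25, 0.0833 and 0.25). Taken over the IgG peaks of any condition, 43.4% to 58.3% of H3K27Ac, 56.7% to 72.1% of RAD21 and 54.7% to 71.7% of PDS5A peaks in the interval lay on one, against 16.7% to 30.8%, 20.2% to 41.0% and 22.2% to 38.9% elsewhere. In the other direction, 72.7% to 97.8% of IgG peaks in the interval lay on a peak of a given antibody, which overlapped the 50% to 95.5% elsewhere.

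**Figure D3:**
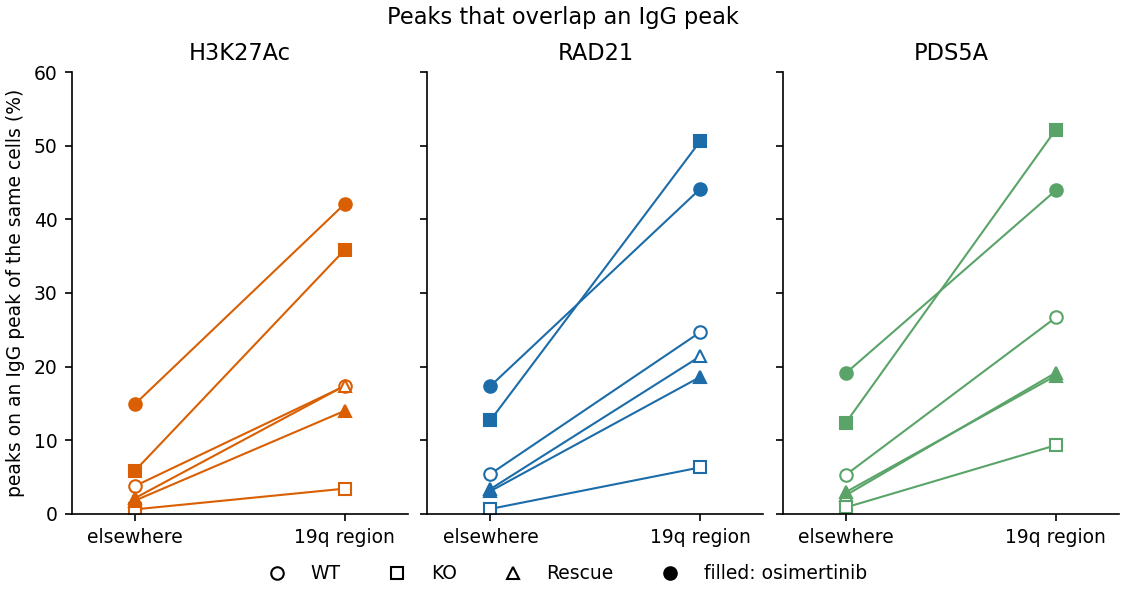
Percentage of H3K27Ac, RAD21 and PDS5A peaks that overlap an IgG peak of the same cells by 1 bp or more (y axis), elsewhere in the genome and in the 19q interval (x axis); each line is 1 condition, the marker gives the genotype and filled markers are osimertinib-treated cells. All 18 lines rise towards the interval, to between 3.40% and 52.2%.

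Cohesin and H3K27Ac peaks also coincided more often in the interval. PDS5A peaks lay on a RAD21 peak of the same cells in 79.0% to 94.2% of cases against 65.1% to 84.0% elsewhere, a mean difference of 9.99 ± 4.77 points (SD, n = 6, higher in 6 of 6, exact sign-flip permutation test, adjusted p = 0.0417 over 8 pairs). RAD21 peaks lay on H3K27Ac peaks in 73.0% to 81.8% against 58.1% to 68.7%, and these ranges did not overlap. PDS5A peaks did so in 71.5% to 86.7% against 52.3% to 66.7%. These differences were 14.6 ± 4.94 and 20.8 ± 7.12 points, higher in 6 of 6 lists each, with the same exact adjusted p of 0.0417. RAD21 on PDS5A (5.05 ± 6.13 points, 5 of 6 lists) and H3K27Ac on RAD21 (15.5 points, 5 of 6 lists) did not pass the exact test, with adjusted p = 0.0938 and 0.0714. Without peaks on any IgG peak the differences were 5.37 points for PDS5A on RAD21, −1.10 for RAD21 on H3K27Ac and 4.12 for PDS5A on H3K27Ac, each with exact adjusted p = 1. What part of the overlap between antibodies is background shared with IgG was not tested further.

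Merging the peaks of all lists that touched gave 463 sites, from 222 to 9393 bp wide (median 1136), which covered 10.5% of the interval. H3K27Ac was listed at 374 of them, RAD21 at 274, PDS5A at 253 and IgG at 158. At 188 sites all 3 antibodies were listed in some condition, 149 had H3K27Ac alone, 44 had both cohesin proteins without H3K27Ac, and 8 had IgG alone. In all 18 antibody lists there were 53 sites, and 49 of these also carried an IgG peak. The number of antibody lists rose with the number of IgG lists: the 305 sites without IgG were in a median of 2 antibody lists and 836 bp wide, the 74 sites with 1 IgG list in a median of 9 and 1304 bp wide, and the 30 sites with 4 or more IgG lists in a median of 18 lists. At the other extreme, 118 sites appeared in 1 list of 24.

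The site at chr19:56110122-56118663 led the catalogue. It was listed in all 24 lists and passed the IDR threshold of 0.05 in all 18 antibody lists and in 2 of 6 IgG lists. The lower replicate −log10 p of H3K27Ac there, the authors' own value, was 75.4 in untreated and 23.9 in treated WT, 68.2 and 56.2 in KO, and 101 and 119 in Rescue cells. RAD21 gave 25.3 and 42.6, 48.04 and 28.0, and 66.0 and 137. PDS5A gave 31.8 and 24.1, 13.5 and 32.97, and 61.7 and 51.5, and IgG gave 6.08 and 14.3, 5.69 and 6.05, and 6.78 and 12.8. Because −log10 p grows with depth, which is unknown, such values rank a peak within its list and are not compared as occupancy.

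Only 3 other sites passed in all 18 antibody lists, all of them in the window from 54 to 55 Mb: chr19:54482261-54485746, chr19:54617421-54620253 and chr19:54674915-54679482. Their median −log10 p over the 18 lists was 37.5, 26.0 and 40.5, and they carried an IgG peak in 5, 4 and 2 lists. Another 5 sites passed in 17 lists. In each of them the list that failed was a PDS5A list, that of untreated KO cells for 4 sites and that of treated WT cells for chr19:58872707-58874715. Among these, chr19:59029427-59032256 had the highest PDS5A value of any list, and led the interval in untreated WT and both Rescue lists but not in the other 3. Its PDS5A values were 45.7 and 48.6 in untreated and treated WT, 5.21 and 47.0 in KO, and 127 and 162 in Rescue cells. Its RAD21 values were 52.1 and 85.8, 86.9 and 57.9, and 133 and 133.

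**Figure D4:**
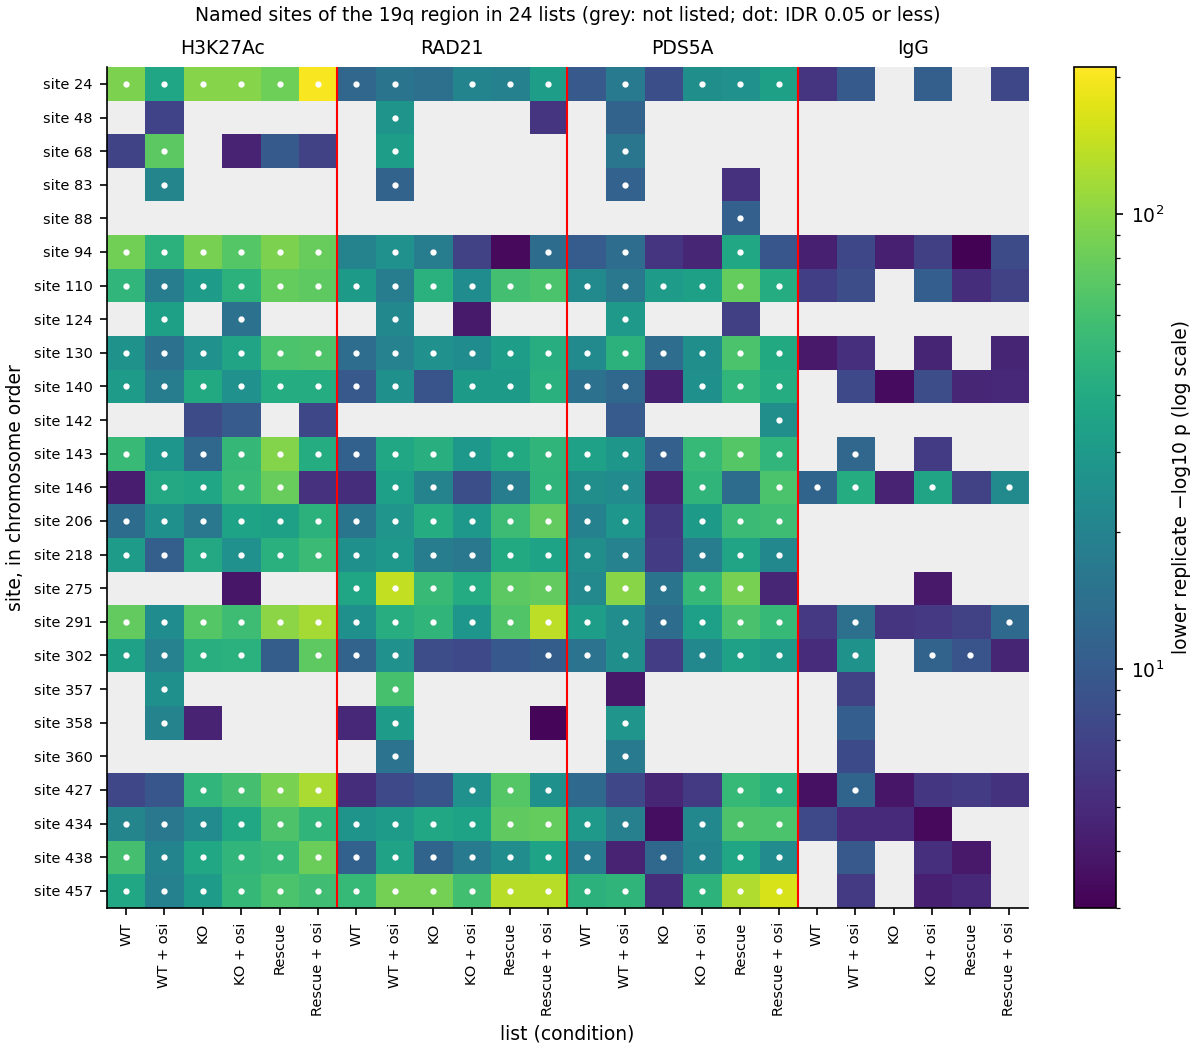
Lower replicate −log10 p (colour, log scale) at 25 named sites of the 19q interval, in chromosome order (rows), in the 24 lists (columns, by antibody and condition); grey means not listed and a white dot a global IDR of 0.05 or less. The site at chr19:56110122-56118663 is filled across all columns, whereas chr19:56903522-56905274 and chr19:57049386-57050129 are filled in osimertinib-treated WT columns alone.

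The highest IgG value of any list was at chr19:54690038-54696780, in the window that ranked first genome-wide. IgG −log10 p was 11.8 in untreated and 41.4 in treated WT, 4.52 and 35.9 in KO, and 6.90 and 23.0 in Rescue cells, and it passed the IDR threshold in 4 of 6 lists. It was the strongest IgG peak of the interval in 4 lists, at rank 7 of 1057 in untreated WT, 9 of 7612 in treated WT, 6 of 2703 in treated KO and 12 of 896 in treated Rescue cells. IgG was listed in all 6 conditions at 3 further sites: chr19:56110122-56118663, chr19:58693263-58695808 and chr19:54367133-54373193. All 4 are also in all 18 antibody lists, although these sites are wide and can hold several peaks, so that not every antibody peak there overlaps an IgG peak. Conversely 4 sites were in all 18 antibody lists with no IgG peak: chr19:54521923-54526502, chr19:55657067-55658723, chr19:55669662-55673686 and chr19:55727587-55729415, picked out after their values were seen except for the second and the last.

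The highest H3K27Ac value of any list was at chr19:52691887-52694731, which led the interval in both KO lists and in treated Rescue cells, while other sites led in the other 3 lists. Its −log10 p was 91.6 in untreated and 36.6 in treated WT, 97.2 and 97.4 in KO, and 81.8 and 202 in Rescue cells. In treated Rescue cells this was rank 1 of all 45234 H3K27Ac peaks, and in treated KO cells rank 3 of 39192. RAD21 was listed there at 12.2 to 31.7 and PDS5A at 8.38 to 33.5, and IgG in 4 lists at 5.79 to 10.9.

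The highest RAD21 value of any list was at chr19:56014856-56016555, a site nearly without H3K27Ac. It led the interval in treated WT cells alone, while chr19:59029427-59032256 led in untreated WT, both KO lists and untreated Rescue cells. RAD21 −log10 p was 36.6 in untreated and 141 in treated WT, 53.2 and 40.7 in KO, and 71.4 and 75.7 in Rescue cells, and it passed in 6 of 6 lists. PDS5A was listed in 6 lists, at 22.3 and 98.2, 15.3 and 51.1, and 88.1 and 4.74. H3K27Ac and IgG were each listed in treated KO cells alone, at 3.90 and 4.02. Of the sites with RAD21 in all 6 lists, 3 had no H3K27Ac peak in any list and no IgG peak: chr19:54275777-54276846, chr19:55651930-55653640 and chr19:56576979-56578781, chosen after their values were seen. The last passed the threshold in all 12 RAD21 and PDS5A lists, with RAD21 at 8.31 to 28.9 and PDS5A at 14.6 to 73.9.

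Under osimertinib the share of the interval was lower in WT cells and higher in Rescue cells for each antibody and for IgG. No direction passed a test. In Rescue cells the Wilson intervals of the treated and untreated shares overlapped for each antibody and for IgG. Such overlap does not decide whether a share changed. The log2 change for H3K27Ac was −0.75 in WT, −0.95 in KO and 0.08 in Rescue cells, against −0.33, −0.13 and 0.17 on the rest of chromosome 19. For RAD21 it was −0.74, 0.08 and 0.18, against −0.31, 0.24 and 0.11. For PDS5A it was −0.38, −0.11 and 0.27, against 0.00, 0.45 and 0.17, and for IgG −1.55, −0.73 and 0.02, against 0.04, 0.10 and −0.01. Neither direction held over the 3 genotypes: the means were −0.54 ± 0.55, −0.16 ± 0.50, −0.07 ± 0.32 and −0.75 ± 0.79 (SD, n = 3 genotypes), with two-sided exact sign-flip permutation p of 0.5, 1, 0.75 and 0.5 and adjusted p = 1 for all 4, in a test that cannot go below 0.25. Whether the genotypes differ in this was not tested, because each genotype has 1 pair of lists per antibody.

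**Figure D5:**
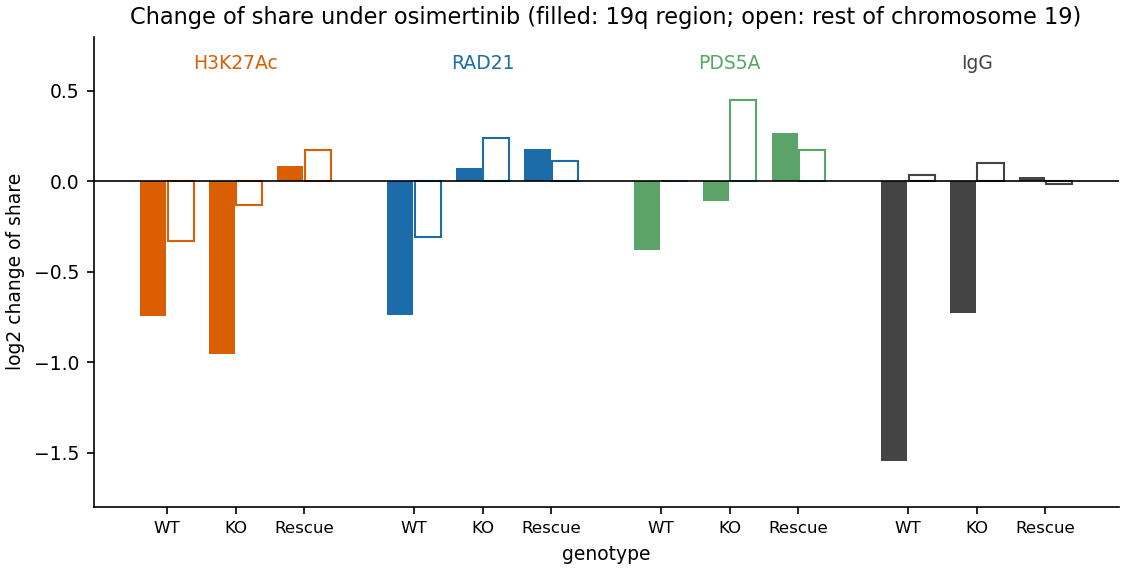
Log2 change under osimertinib of the share of peaks (y axis) in the 19q interval (filled bars) and on the rest of chromosome 19 (open bars), by antibody and genotype (x axis); each bar is 1 pair of lists, with no replicate. The WT bars of the interval run from −1.55 to −0.38, and the Rescue bars lie between 0.02 and 0.27.

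The lower shares of treated WT cells came with more peaks, not fewer. H3K27Ac peaks in the interval went from 196 to 228 while the WT list grew 1.95-fold, RAD21 from 154 to 231 while it grew 2.50-fold, PDS5A from 120 to 223 with a list 2.42-fold as long, and IgG from 48 to 119 with one 7.20-fold as long. H3K27Ac in KO cells had fewer deposited peaks, 251 against 294, while the list grew 1.66-fold, but more passing ones, 107 against 80. In Rescue cells the lists changed in length by 0.809-fold to 1.15-fold and the interval by 0.865-fold to 1.21-fold. An alternative cut the treated and untreated lists to equal length, keeping the strongest peaks. The mean change of share over genotypes then kept its direction in 3 of 4 cases, IgG included, and reversed for PDS5A. What part of the changed share comes from list length was not tested further.

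Peaks that osimertinib-treated cells had and untreated cells lacked were less frequent in the interval than over whole lists in 8 of 9 comparisons. For H3K27Ac, 70 of 228 treated WT peaks (30.7%) had no untreated peak, against 57.7% of the whole list, 61 of 251 in KO (24.3% against 50.9%) and 74 of 279 in Rescue (26.5% against 28.4%). For RAD21 the counts were 97 of 231 in WT (42.0% against 63.6%), 23 of 156 in KO (14.7% against 22.7%) and 63 of 226 in Rescue cells (27.9% against 24.5%), the exception. For PDS5A they were 115 of 223 in WT (51.6% against 62.5%), 79 of 159 in KO (49.7% against 59.1%) and 24 of 208 in Rescue cells (11.5% against 12.6%). IgG, the control, had 91 of 119 (76.5% against 90.8%), 104 of 112 (92.9% against 97.1%) and 27 of 45 (60% against 81.4%), so background peaks showed the same tendency. No test was made, since each value compares 1 pair of lists.

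Peaks of untreated cells without a treated counterpart gave a mixed picture. In WT cells they were 36 of 196 H3K27Ac peaks (18.4% against 15.7% of the list), 19 of 154 RAD21 peaks (12.3% against 7.68%) and 12 of 120 PDS5A peaks (10% against 7.27%). In KO cells they were 94 of 294 H3K27Ac peaks (32.0% against 14.9%), 24 of 159 RAD21 peaks (15.1% against 28.3%) and 5 of 86 PDS5A peaks (5.81% against 18.8%). In Rescue cells they were 26 of 230 (11.3% against 21.3%), 23 of 187 (12.3% against 19.1%) and 26 of 214 (12.1% against 28.8%). KO H3K27Ac stood furthest above its list. Of its 80 passing peaks, 0 lacked a treated peak. The 94 unmatched peaks had a median −log10 p of 4.85 against 8.48 for the matched ones.

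Untreated KO cells had the most H3K27Ac peaks of any condition in the interval, 294, and the largest share, 1.24% (Wilson 95% interval 1.11% to 1.39%) against 0.866% in untreated WT (0.754% to 0.996%). Of these, 117 (39.8% against 28.2% of the list) had no untreated WT peak, and 80 of the 117 lay from 54 to 57 Mb. They were weak, with a median −log10 p of 4.98 against 9.59 for those with a WT peak, and 1 of the 117 passed the IDR threshold. In the reverse direction 24 of 196 WT peaks (12.2% against 26.5%) had no KO peak. Limited to passing peaks, the shares of untreated KO and WT cells were 1.46% and 1.33%, with intervals that overlapped.

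For cohesin the untreated WT and KO lists shared most peaks of the interval. Without a KO peak were 27 of 154 WT RAD21 peaks (17.5% against 21.1%) and 44 of 120 PDS5A peaks (36.7% against 52%). Without a WT peak were 30 of 159 KO RAD21 peaks (18.9% against 35%) and 11 of 86 PDS5A peaks (12.8% against 25.7%). All 4 were below the list as a whole.

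Under osimertinib, WT peaks without a KO peak were 49 of 228 H3K27Ac peaks (21.5% against 41.7%), 89 of 231 RAD21 peaks (38.5% against 58.6%) and 81 of 223 PDS5A peaks (36.3% against 53.2%). KO peaks without a WT peak were 76 of 251 (30.3% against 33%), 14 of 156 (8.97% against 7.07%) and 17 of 159 (10.7% against 9.23%). The larger numbers on the WT side for cohesin went with WT lists that were 38829 and 34781 peaks long against 17687 and 18352.

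Restoring METTL7A in KO cells went with more PDS5A peaks in the interval, 214 against 86 untreated and 208 against 159 treated. Of the untreated Rescue PDS5A peaks 130 had no KO peak (60.7% against 73.6% of the list), while 1 of 86 KO peaks had no Rescue peak (1.16% against 1.92%). The untreated Rescue list was also longer, with 33598 against 9232 peaks, and its share in the interval was lower, at 0.637% against 0.932%. For H3K27Ac, 44 of 230 untreated Rescue peaks had no KO peak (19.1% against 52.3%), and 99 of 294 KO peaks had no Rescue peak (33.7% against 12.9%). For RAD21 these were 43 of 187 (23.0% against 34.1%) and 11 of 159 (6.92% against 13.2%). The 99 unmatched KO H3K27Ac peaks had a median −log10 p of 4.93 against 8.57 for the matched ones. Of the 80 passing KO H3K27Ac peaks, 0 lacked a Rescue peak.

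Under osimertinib, 65 of 279 Rescue H3K27Ac peaks had no KO peak (23.3% against 32.6%), as did 86 of 226 RAD21 (38.1% against 40.5%) and 63 of 208 PDS5A peaks (30.3% against 40.3%). KO peaks without a Rescue peak were 31 of 251 (12.4% against 20.8%), 17 of 156 (10.9% against 9.45%) and 11 of 159 (6.92% against 8.78%). Over all 42 list pairs of the 3 antibodies, which share lists, the interval had fewer unmatched peaks than elsewhere in 32, and the unmatched peaks had a lower median −log10 p than the matched ones in 42.

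Few sites passed the IDR threshold under treatment while no untreated list had a peak of that antibody. There were 5 of 374 H3K27Ac sites (1.34% against 2.25% of such sites on all chromosomes), 14 of 274 RAD21 sites (5.11% against 6.38%) and 9 of 253 PDS5A sites (3.56% against 2.18%). The Wilson 95% intervals, 0.572% to 3.09%, 3.07% to 8.39% and 1.88% to 6.62%, hold the value of all chromosomes in each case. Of these sites 4, 13 and 8 passed in the treated WT list, which for RAD21 and PDS5A was the longest. The reverse was seen at 0 sites for H3K27Ac (Wilson upper bound 1.02%, against 0.106% on all chromosomes) and RAD21 (upper bound 1.38%, against 0.149%) and at 1 for PDS5A (0.395% against 0.754%), chr19:54315433-54316017, listed in untreated Rescue cells alone at a −log10 p of 11.1. The site in the most treated genotypes was chr19:54544697-54545935. H3K27Ac passed there in treated WT at 33.6 and in treated KO cells at 14.7, and RAD21 (21.7) and PDS5A (29.7) passed in treated WT cells. It had no IgG peak, and PDS5A was also listed in untreated Rescue cells at 6.76 and RAD21 in treated KO cells at 4.11.

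In treated WT cells a site at chr19:56903522-56905274 had RAD21 at 60.9, H3K27Ac at 25.3, PDS5A at 3.94 and IgG at 6.97, and it was in no other list. Nearby, chr19:56915036-56916341 had PDS5A at 27.5, RAD21 at 31.2, H3K27Ac at 19.9 and IgG at 10.7 in treated WT cells, with RAD21 or H3K27Ac at 3.19 to 4.85 in 3 other lists. The treated WT peaks of RAD21 (15.1), PDS5A (17.1) and IgG (7.83) at chr19:57049386-57050129 had no counterpart in any list. At these 3 sites the treated WT cells therefore had an IgG peak too.

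Without IgG, chr19:54047848-54049358 had RAD21 at 31.7 and PDS5A at 16.0 in treated WT cells alone. H3K27Ac was listed there at 71.6 in treated WT cells, rank 3 of 44124 peaks, at 7.21 in untreated WT, 4.52 in treated KO, and 10.1 and 6.90 in Rescue cells, and not in untreated KO cells. The treated WT peak rests on 1 pair of replicates, whose values were 71.9 and 71.6. Also without IgG, chr19:53496775-53497481 and chr19:54287560-54289460, had RAD21 at 27.2 and 11.7 in treated WT cells, and chr19:54671758-54672492 had PDS5A at 24.5 in treated Rescue cells.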

How the data were processed

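CUT&RUN was run on PC9 cells in 60 samples; 48 of them stand behind the 24 lists used here, and the 12 H2A samples were not used here. Per the submitters' processing notes, MACS2 2.2.7.1, deepTools 3.5.1, bedtools 2.30, SAMtools 1.16, Bowtie2 2.4.2, FastQC and Trimmomatic were used, with GRCh37 as the build. The order of steps, the peak threshold, the peak caller's control and the IDR version are not given in the sources used here. The deposited values are a global IDR per joined peak, as −log10, and each replicate's −log10 p, of which none is under 3. Every list also holds peaks with a global IDR above 0.05, which are included here unless stated. The labels planned 20 M read pairs for each library, but no read totals are in the lists, so sequencing depth is unknown.

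From these, peaks of chromosomes 1 to 22 and X were counted by midpoint, overlaps of 1 bp or more were counted, and the peaks of all lists were merged into sites. The lower replicate value served to rank peaks. Shares of single lists carry Wilson 95% intervals. Tests were two-sided exact sign-flip permutation tests over 6 conditions, or over 3 genotypes for osimertinib with 0.5 added to counts, with Benjamini-Hochberg adjustment within each family. Alternatives are given in the closing section. The sites named were the 10 with most antibody lists at an IDR of 0.05 or less, per antibody the 3 gained and 3 lost under osimertinib in most genotypes, the 5 in most IgG lists, and the site with the highest value of each antibody in any list. Sites outside this rule are marked. The interval, its members and the comparisons were chosen with earlier results of these data known. No GRCh37 annotation was used here, so the planned gene lists were not computed. The tools were scipy 1.17.1, pandas 2.3.3, numpy 2.4.6, matplotlib 3.10.9 and Python 3.11.15, and the overlap, share and permutation code was tested on simulated data.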

Additional observations from a re-analysis of the deposited data

Results flagged for a closer look

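The log2 change of the share of the 19q interval under osimertinib differed in sign between genotypes, with each change resting on 1 pair of lists. Wilson intervals of the treated and untreated shares overlapped in Rescue cells for each antibody and for IgG. For PDS5A, the largest rise, they were 0.557% to 0.728% untreated and 0.669% to 0.876% treated. In KO cells they overlapped for all but H3K27Ac, and in WT cells for PDS5A alone. These intervals cover counting error within a list only, and whether they overlap does not decide whether a share changed. The difference between genotypes was not tested, because each genotype has 1 pair of lists per antibody. For H3K27Ac the log2 change was −0.75 in WT and −0.95 in KO cells but 0.083 in Rescue cells. For RAD21 it was −0.74 in WT but 0.077 in KO and 0.18 in Rescue cells. For PDS5A it was −0.38 in WT and −0.11 in KO but 0.27 in Rescue cells. IgG, the control, went the same way as H3K27Ac and PDS5A, at −1.55 in WT, −0.73 in KO and 0.024 in Rescue cells. In WT cells the treated lists were 1.95-fold to 7.20-fold as long as the untreated ones.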

How the results depend on the processing

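No paired analysis was possible because each list joins both replicates of a condition, so that replicate numbers could not enter as a block; the tests set lists of the same condition or genotype against each other. Of 267 values recomputed under other settings, 141 stayed the same, 83 kept the direction but were no longer called, 22 reversed and 21 moved. A test result stayed the same if it kept its direction and side of the threshold. A mean without a test stayed the same if it lay within the SD of its main value, and otherwise moved. The number of sites was judged by its ratio to the main count. The cause was not tested unless given here. With a genotype left out 4 conditions remain, so that the exact test cannot go below 0.125 and no call can pass.

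At a global IDR of 0.05 or less, antibody minus IgG shares were −6.90 points (H3K27Ac), −6.86 (RAD21) and −6.81 (PDS5A), and at 0.01 or less −3.73, −4.14 and −4.02, none called. At 0.05 the direction was reversed in untreated KO cells, where 0 of 7 passing IgG peaks lay in the interval. Mean shares became 1.12%, 1.16%, 1.21% and 8.02% (IgG) at 0.05, and 1.68%, 1.27% and 1.40% at 0.01. The H3K27Ac log2 density ratio to the rest of chromosome 19, which was near 0, became 0.78 at 0.05, 1.503 at 0.01 and 1.60 against all chromosomes, each called (adjusted p = 0.0313 in the exact test), and 0.21 by covered length, not called. RAD21 and PDS5A ratios at 0.05 were 1.301 and 0.97, and at 0.01 were 1.58 and 1.13, all called. Overlap differences at 0.05 were 12.1 points (PDS5A on RAD21), 25.9 (RAD21 on H3K27Ac), 27.9 (PDS5A on H3K27Ac), 2.03 (H3K27Ac on IgG), 1.81 (RAD21 on IgG) and 3.28 (PDS5A on IgG), and at 0.01 they were 5.16, 30.9, 29.9, 2.58, 1.39 and 4.02, none called. At 0.01 the strength rank difference was −6.16 for RAD21 and −3.98 for PDS5A. The catalogue held 218 sites at 0.05.

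Without 54 to 56 Mb the density ratios were 0.12 (RAD21), −0.046 (PDS5A) and 2.01 (IgG), the mean shares 0.416%, 0.495%, 0.449% and 2.57%, the sites 257, and treated H3K27Ac peaks with no untreated peak 23.1%. With peaks on IgG peaks left out, the density ratios were −0.31 and −0.48, overlap differences 5.37 (PDS5A on RAD21), −0.098 (RAD21 on PDS5A), −1.10 (RAD21 on H3K27Ac), 4.12 (PDS5A on H3K27Ac) and −0.56 (H3K27Ac on RAD21), the H3K27Ac strength difference −2.78, the pass differences 0.847, 6.02 and 6.05, mean shares 0.437% (RAD21) and 0.403% (PDS5A), and osimertinib changes 0.026 (RAD21) and 0.073 (PDS5A). As a share of chromosome 19 the means were 12.2%, 15.2%, 14.5% and 41.9%. With lists of equal length the PDS5A osimertinib change was 0.13. Settings added after seeing the data gave density ratios of −0.0026 (RAD21), −0.11 (PDS5A) and 1.95 (IgG) without 20 to 33 Mb, and 36.9% of WT PDS5A peaks without a KO peak at 50% overlap.

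Leaving out each genotype, or treated WT cells, gave ranges of −4.40 to −3.37, −4.34 to −3.22 and −4.37 to −3.30 points for antibody minus IgG. Density ratios ranged from −0.10 to 0.12 (0.03 without treated WT cells) for H3K27Ac, 0.33 to 0.43 for RAD21, 0.13 to 0.39 for PDS5A and 1.97 to 2.77 for IgG. Pass differences ranged from 13.5 to 15.5, 12.3 to 13.0 and 10.7 to 11.8. Overlap differences ranged from 9.59 to 11.3 (PDS5A on RAD21), 13.3 to 16.5 (RAD21 on H3K27Ac), 19.3 to 23.2 (PDS5A on H3K27Ac), 14.8 to 18.4 (H3K27Ac on IgG), 19.3 to 22.4 (RAD21 on IgG) and 19.7 to 23.6 (PDS5A on IgG). Osimertinib changes ranged from −0.33 to 0.13 for RAD21 and −0.24 to 0.078 for PDS5A, both above 0 without WT. Depth is unknown, so no limit from it can be given.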
